A study of Mus musculus with 20 samples.

Results

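The genes of the TGFβ ligands, their receptors and the latent TGFβ binding proteins were followed through 20 libraries of cultured mouse kidney cells. The genes were chosen by name. They are the 3 ligands Tgfb1, Tgfb2 and Tgfb3, the 3 receptors Tgfbr1, Tgfbr2 and Tgfbr3, and the 4 binding proteins Ltbp1, Ltbp2, Ltbp3 and Ltbp4, which makes 10 of the 51826 genes in the deposited count table. All 10 were among the 20407 genes tested, which had at least 5 counts in at least 5 libraries.

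On GRCm38 the ligand genes lie at chr7:25687002-25705077 (Tgfb1, ENSMUSG00000002603), chr1:186622792-186705989 (Tgfb2, ENSMUSG00000039239) and chr12:86056745-86079041 (Tgfb3, ENSMUSG00000021253). The receptor genes lie at chr4:47353222-47414931 (Tgfbr1, ENSMUSG00000007613), chr9:116084293-116175360 (Tgfbr2, ENSMUSG00000032440) and chr5:107106570-107289629 (Tgfbr3, ENSMUSG00000029287). The binding protein genes lie at chr17:75005568-75392512 (Ltbp1, ENSMUSG00000001870), chr12:84783212-84876532 (Ltbp2, ENSMUSG00000002020), chr19:5740904-5758532 (Ltbp3, ENSMUSG00000024940) and chr7:27305136-27337692 (Ltbp4, ENSMUSG00000040488). Counts were summed over the exons of each gene.

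The cells were primary renal myofibroblasts grown out of minced kidney from C57BL/6J mice and harvested at passage 2. They were wild type (WT) or WWP2-/-, labelled KO or HO, and were either untreated controls or treated with TGFβ1, with 5 libraries of poly-A RNA in each of the 4 groups. The labels give no dose, duration, sex or age. They also do not say which libraries share an animal or a culture, so P values measure only the spread between these libraries.

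TGFβ is secreted in a latent form, in which the mature cytokine stays bound to its own propeptide. LTBP1, LTBP3 and LTBP4 link this latent complex to the extracellular matrix, where integrins and proteases release the ligand, whereas LTBP2 resembles them without binding latent TGFβ. Free ligand binds TGFBR2, which activates the kinase TGFBR1 and through it SMAD proteins, and TGFBR3 (betaglycan) is a co-receptor that presents ligand and is needed most for TGFβ2. In the kidney this pathway turns fibroblasts into contractile, matrix-producing myofibroblasts, and WWP2 is a ubiquitin ligase of the NEDD4 family.

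Totals were between 47520759 and 73063697 counts per library, and no pair of libraries was identical. Levels are given as CPM, the count of a gene relative to the library's total count scaled by edgeR's TMM method. Wwp2 was between 17.0 and 22.7 CPM in the WWP2-/- libraries and between 49.99 and 59.8 CPM in the WT libraries, so its transcript was reduced but present in every WWP2-/- library. All 8 fibroblast markers and all 4 myofibroblast markers were detected, with summed levels of 4207 to 25542 and 347 to 4044 CPM over the libraries. Marker sums of other cells were 34.2 to 629 CPM for pericytes and smooth muscle, 57.4 to 3750 CPM for macrophages, 6.08 to 169 CPM for endothelium, 5.31 to 512 CPM for tubular epithelium and 23.9 to 125 CPM for podocytes. Taken over all 20 libraries, 3 of the 9 tubular and 2 of the 4 podocyte markers were below 1 CPM, so these sums rest mostly on the other markers. Since these are bulk samples, fewer cells of a type and less RNA per cell cannot be told apart.

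A pair of WWP2-/- libraries stood apart from the others. In untreated replicate 3 and TGFβ1-treated replicate 1, Acta2, which encodes the smooth muscle actin that defines myofibroblasts, was at 38.9 and 50.4 CPM, against 1016 to 3430 CPM in the other 18 libraries. Transcripts of Xist, which is made from the inactive X chromosome of female cells, were found at 108 to 254 CPM in 8 of the 10 WT libraries and at 0.0776 and 0.12 CPM in WT untreated replicate 4 and WT treated replicate 3. Among WWP2-/- libraries Xist was above 1 CPM in only 3, at 291 and 225 CPM in both low-Acta2 libraries and at 33.7 CPM in untreated replicate 1. Genotype and Xist therefore went together in most libraries. The genotype results are given with all libraries, and some of them also without these libraries or among libraries with or without Xist.

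On the TPM scale, which also divides by exon length and so allows genes to be compared, Ltbp3 had the highest mean level in untreated WT cells, at 174 TPM, with 161 to 192 TPM over 5 libraries. Tgfb3 followed at 124 TPM, Ltbp2 at 121 TPM, Tgfbr2 at 95.1 TPM and Tgfb1 at 67.2 TPM. Tgfbr1 at 43.2, Tgfbr3 at 38.3, Tgfb2 at 33.4, Ltbp1 at 27.9 and Ltbp4 at 27.3 TPM formed a lower group. The only neighbours in this order whose libraries did not overlap were Tgfb1, at 50.6 TPM or above, and Tgfbr1, at 48.6 TPM or below. With all annotated exons as the length, genes further apart could also be told apart, as Ltbp3, at 161 TPM or above, from Tgfbr2, at 111 TPM or below. So could Tgfb3, at 107 TPM or above, from Tgfb1, at 87.3 TPM or below, and Tgfbr2, at 80.9 TPM or above, from Tgfbr1. With the longest transcript as the length, Tgfb1 stood between Ltbp2 and Tgfb3 at 99.9 TPM, because its annotated exons together span 5042 bases and its longest transcript only 2573 bases. Tgfb1, at 75.3 to 130.2 TPM, and Tgfb3, at 80.7 to 130.3 TPM, then overlapped and could not be told apart.

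**Figure D1:**
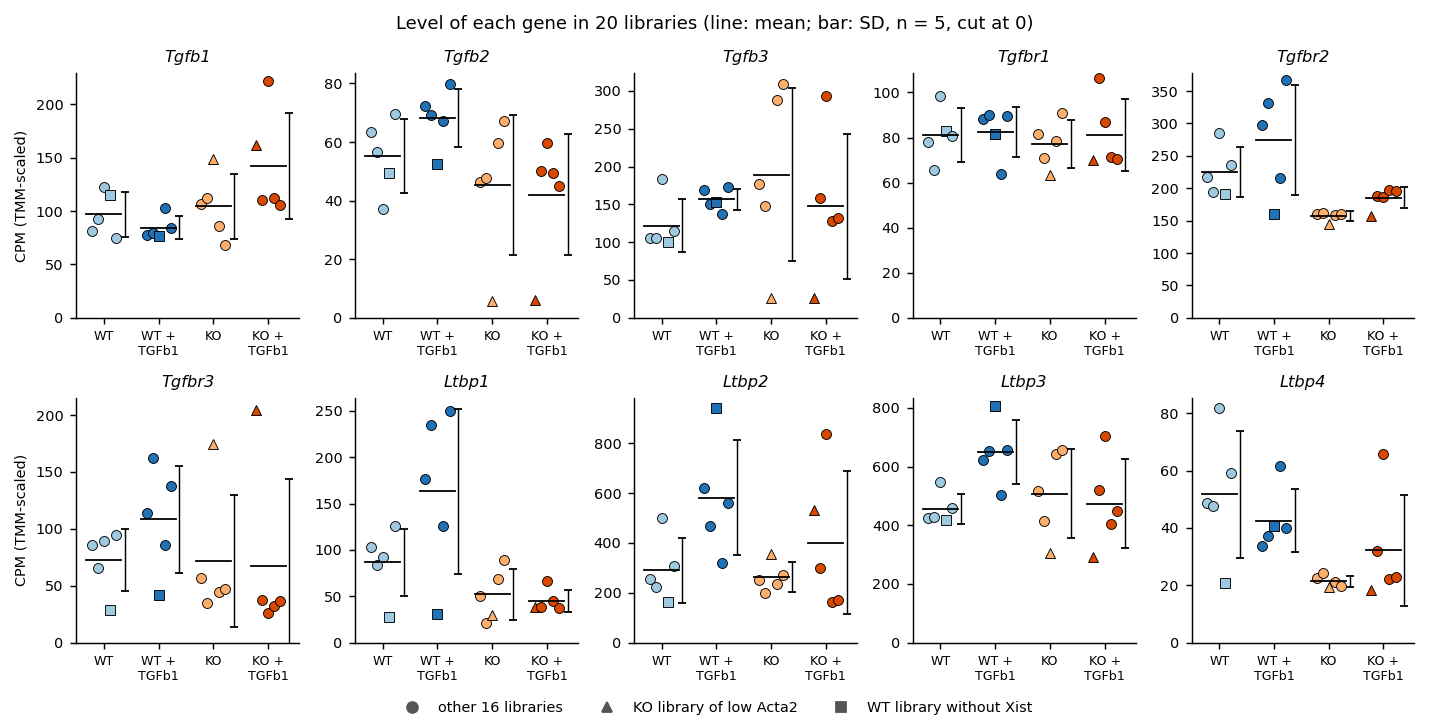
Level of each gene in CPM on the vertical axis for the 4 groups, with 1 point per library, the mean as a line and the SD as a bar. Triangles mark the 2 WWP2-/- libraries of low Acta2, where Tgfb2 is at 5.64 and 6.25 CPM and Tgfbr3 at 174 and 204 CPM, and squares mark the 2 WT libraries without Xist, where Ltbp1 is at 28.1 and 30.7 CPM.

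Among the ligands, Tgfb1, the isoform that was also added to the cultures as protein, was the one whose treated groups did not overlap. In untreated WT cells it was at 81.1, 92.3, 123, 115 and 74.4 CPM, and in treated WT cells at 77.6, 79.9, 77.0, 103 and 84.4 CPM. In untreated WWP2-/- cells it was at 106, 113, 149, 86.1 and 67.8 CPM, and in treated WWP2-/- cells at 162, 110, 221, 112 and 106 CPM. Every treated WWP2-/- library was thus above every treated WT library, while the untreated genotypes overlapped.

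With TGFβ1, the log2 fold change of Tgfb1 in WWP2-/- against WT was 0.76 (SE 0.22, 95% interval 0.29 to 1.22, n = 5 against 5), with an adjusted P of 0.0512 by edgeR's quasi-likelihood test over all genes, just short of the threshold of 0.05. The exact permutation P was 0.00794, the smallest that 5 against 5 libraries allow, and 5.67% of all genes tested also had libraries that did not overlap in this comparison, 2.59% with WWP2-/- higher. Without the low-Acta2 libraries the log2 fold change was 0.70, with an adjusted P of 0.0376 by edgeR. Among libraries without Xist, Tgfb1 was at 106 to 221 CPM in 4 treated WWP2-/- libraries and at 77.0 CPM in the WT library, and among libraries with Xist at 162 CPM in the WWP2-/- library and at 77.6 to 103 CPM in 4 WT libraries. Each side of this split holds a group of 1 library, and the treated WWP2-/- library with Xist is of low Acta2. Untreated, its log2 fold change was 0.10 (SE 0.22), with an adjusted P of 0.849 by edgeR.

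The promoter of Tgfb1 is shown because this ligand's treated groups separated, that of Tgfb2 because it was lowest in the low-Acta2 libraries, and those of Ltbp1 because it was called. RefSeq promoter windows on GRCm38.p6 were found for 8 of the 10 genes, not for Tgfb3 and Tgfbr3. The 250 bases before each start were searched on both strands for the SMAD box, which reads CAGAC, the GC box, which reads GGGCGG, the TATA box, which reads TATAAA, the AP-1 site, which reads TGACTCA, and the CRE, which reads TGACGTCA on either strand. Matches are in capitals in the 2 sequences that follow, the first on the plus strand at chr7:25686752-25687001 and the second on the minus strand at chr1:186705990-186706239.
Tgfb1: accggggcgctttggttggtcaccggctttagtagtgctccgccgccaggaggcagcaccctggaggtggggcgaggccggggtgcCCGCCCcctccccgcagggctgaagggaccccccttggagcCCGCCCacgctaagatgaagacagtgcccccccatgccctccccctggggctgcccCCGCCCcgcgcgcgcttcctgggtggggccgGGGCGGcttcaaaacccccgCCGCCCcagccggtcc
Tgfb2: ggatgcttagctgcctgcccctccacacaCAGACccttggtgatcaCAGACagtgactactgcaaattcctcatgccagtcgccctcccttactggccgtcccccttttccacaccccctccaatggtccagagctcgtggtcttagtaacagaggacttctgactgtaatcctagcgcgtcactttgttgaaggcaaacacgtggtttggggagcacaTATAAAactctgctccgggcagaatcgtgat
The Tgfb1 window held 5 GC boxes and none of the other motifs, with 75.2% G and C against a median of 52.4% over 32851 windows. The Tgfb2 window held 2 SMAD boxes and, with its first base 31 bases before the start, a TATA box. GC boxes were in 32.7% of all windows, SMAD boxes in 42.2% and TATA boxes in 12.4%. A match of letters does not show that a factor binds there.

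Tgfb2, whose product depends most on betaglycan, was at 63.4, 56.7, 37.2, 49.3 and 69.5 CPM in untreated WT cells and at 72.2, 69.2, 52.6, 67.3 and 79.8 CPM in treated WT cells. Without WWP2 it was at 46.3, 47.8, 5.64, 59.6 and 67.3 CPM untreated and with TGFβ1 at 6.25, 49.95, 59.7, 49.5 and 45.0 CPM. The low-Acta2 libraries held the lowest values of all 20. Between genotypes the log2 fold change was -0.28 (SE 0.49) untreated and -0.70 (SE 0.49) treated, with adjusted P values of 0.809 and 0.406 by edgeR. Without the low-Acta2 libraries the treated value was -0.42 (SE 0.18), with an adjusted P of 0.105 by edgeR. Tgfb2 passed the threshold in treated cells only once the WT libraries without Xist were left out too, with a log2 fold change of -0.50 and an adjusted P of 0.0367 by edgeR. In that fit every treated WT library had Xist and no treated WWP2-/- library did, so genotype and Xist could not be told apart.

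Tgfb3 was at 106, 106, 183, 101 and 114 CPM in untreated WT cells and at 169, 150, 154, 137 and 172 CPM in treated WT cells. In untreated WWP2-/- cells it was at 177, 147, 25.7, 287 and 309 CPM, and in treated WWP2-/- cells at 26.7, 158, 293, 128 and 132 CPM. The range within WWP2-/- cells thus enclosed that of WT cells on both sides. The log2 fold change between genotypes was 0.63 (SE 0.50) untreated and -0.08 (SE 0.50) treated, with adjusted P values of 0.571 and 0.944 by edgeR. Without the low-Acta2 libraries the untreated value was 0.90 (SE 0.27), with an adjusted P of 0.0907 by edgeR, and all 4 remaining untreated WWP2-/- libraries were above 4 of the 5 WT libraries.

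Within the summed TPM of the 3 ligands, Tgfb3 held 54.9% ± 5.6 (SD, n = 5) in untreated WT cells, Tgfb1 29.8% ± 4.9 and Tgfb2 15.3% ± 4.9. In treated WWP2-/- cells the shares were 50.8% ± 17.8, 40.2% ± 21.3 and 9.0% ± 4.1. The wide spread came with the low-Acta2 libraries, in which Tgfb1 held 77.5% and 78.2% of ligand transcripts, against 11.5% to 37.4% in the other 18 libraries. With the longest transcript as the length, Tgfb1 instead held 44.5% ± 5.7 in untreated WT cells and Tgfb3 42.2% ± 5.3, so which of these ligands led was not fixed by the data.

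**Figure D2:**
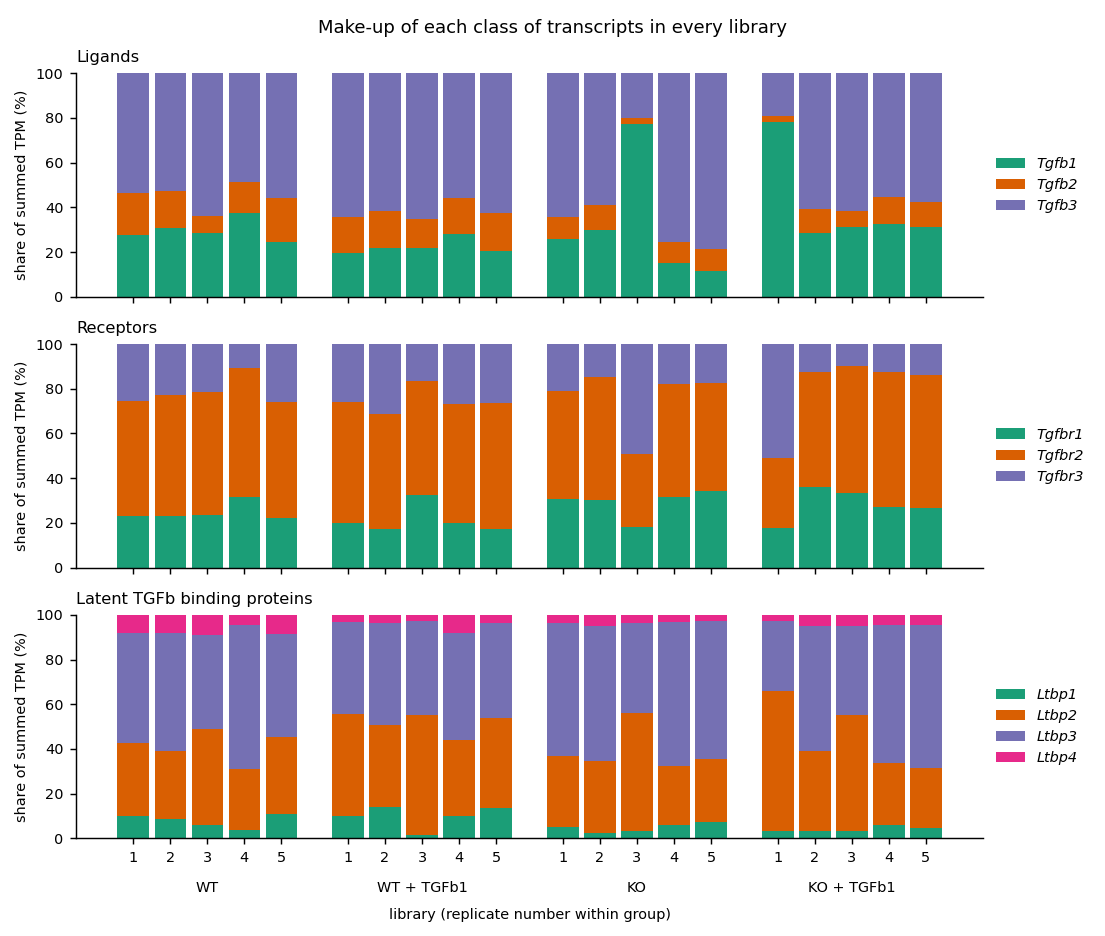
Share of each gene in the summed TPM of its class, in percent on the vertical axis, with 1 stacked bar per library. With all annotated exons as the length, as drawn, Tgfb3 is the main ligand transcript in most libraries, but Tgfb1 takes 77.5% and 78.2% in WWP2-/- untreated replicate 3 and treated replicate 1, and Ltbp3 and Ltbp2 make up most of the binding protein transcripts throughout. With the longest transcript as the length, the mean shares of Tgfb1 and Tgfb3 over the 20 libraries are 44.5% and 44.7%.

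Of the receptors, Tgfbr1, the signalling kinase, varied least of all 10 genes, with a coefficient of variation of 14.5% over the 20 libraries against 77.0% for Ltbp1, the most variable. Its levels lay between 63.6 and 106 CPM over the 20 libraries, with means of 81.1 ± 11.8 CPM in untreated WT cells, 82.6 ± 11.1 in treated WT cells, 77.1 ± 10.5 in untreated WWP2-/- cells and 81.1 ± 15.8 in treated WWP2-/- cells (SD, n = 5 each). Between genotypes the log2 fold change was -0.07 (95% interval -0.37 to 0.22) untreated and -0.03 (95% interval -0.32 to 0.27) treated, by edgeR. A genotype difference of more than 0.37 on the log2 scale in either direction lay outside both intervals.

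Tgfbr2, the receptor that binds ligand first, was the only gene of the 10 whose untreated genotypes did not overlap. In untreated cells it was at 217, 194, 286, 191 and 236 CPM in WT and at 160, 162, 144, 158 and 161 CPM in WWP2-/-. In treated cells it was at 297, 331, 160, 215 and 366 CPM in WT and at 158, 188, 187, 198 and 196 CPM in WWP2-/-, where the WT library without Xist fell among the WWP2-/- libraries. The log2 fold change was -0.52 (SE 0.17, 95% interval -0.88 to -0.15) untreated and -0.57 (SE 0.17, 95% interval -0.93 to -0.20) treated, with adjusted P values of 0.18 and 0.0579 by edgeR. Neither passed the threshold. The exact permutation P was 0.00794 untreated, and libraries did not overlap for 2.79% of all genes in this comparison, 1.29% with WWP2-/- lower.

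Without both WT libraries lacking Xist, Tgfbr2 passed the threshold in both comparisons, with log2 fold changes of -0.62 and -0.71 and adjusted P values of 0.00887 and 0.00183 by edgeR, where 5.41% and 16.2% of all genes passed. The libraries left out held the lowest WT levels, at 191 and 160 CPM against 194 CPM or more, so leaving them out by itself widened the difference. All WT libraries kept had Xist, while most WWP2-/- libraries did not. Within libraries with Xist, untreated levels were 144 to 160 CPM in 2 WWP2-/- libraries and 194 to 286 CPM in 4 WT libraries, and within those without it 158 to 162 CPM in 3 WWP2-/- libraries and 191 CPM in the WT library. With treatment, 4 WWP2-/- libraries without Xist were at 187 to 198 CPM and the WT library at 160 CPM, which is the opposite order. Treated libraries with Xist kept the order, with 4 WT libraries at 215 to 366 CPM. The WWP2-/- library among them, which is of low Acta2, was at 157.5 CPM. These splits hold a single WT library without Xist in each condition, and the lowest of the untreated WWP2-/- libraries with Xist is of low Acta2. The other was at only 33.7 CPM of Xist, against 108 CPM or above in the WT libraries with Xist.

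Tgfbr3, the co-receptor, was at 85.5, 65.3, 89.6, 28.7 and 94.95 CPM in untreated WT cells and at 114, 163, 41.5, 85.6 and 138 CPM in treated WT cells. In untreated WWP2-/- cells it was at 56.5, 34.8, 174, 44.7 and 47.0 CPM, and in treated WWP2-/- cells at 204, 37.1, 26.2, 32.5 and 36.6 CPM. The low-Acta2 libraries were the highest of all 20, the other 8 WWP2-/- libraries did not exceed 56.5 CPM, and the lowest WT values were those of the libraries without Xist. With all libraries the log2 fold change between genotypes was -0.03 (SE 0.57) untreated and -0.68 (SE 0.58) treated, with adjusted P values of 0.987 and 0.494 by edgeR. Without the low-Acta2 libraries these values were -0.70 (SE 0.34, adjusted P 0.301 by edgeR) and -1.71 (SE 0.35, adjusted P 0.00949 by edgeR), so the treated difference passed. In treated libraries without Xist, however, Tgfbr3 was at 26.2 to 37.1 CPM in 4 WWP2-/- libraries and at 41.5 CPM in the WT library, a difference of -0.33 in mean log2 CPM. In treated libraries with Xist it was at 204 CPM in the WWP2-/- library, which is of low Acta2, and at 85.6 to 163 CPM in 4 WT libraries.

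Tgfbr2 made up 51.5% ± 7.4 of the summed TPM of the 3 receptors over all 20 libraries, Tgfbr1 25.8% ± 6.3 and Tgfbr3 22.7% ± 11.2 (SD). In the low-Acta2 libraries Tgfbr3 held 49.3% and 51.0%, against at most 31.4% in WT libraries. With that exception Tgfbr2 was the main receptor transcript in every library.

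**Figure D3:**
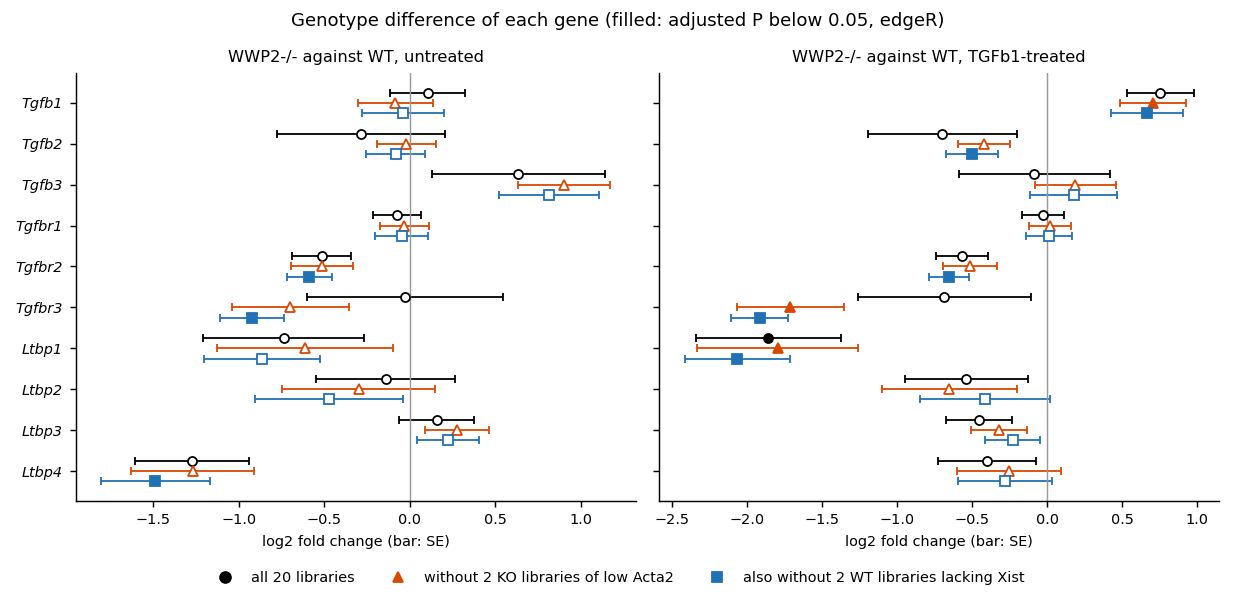
Log2 fold change of each gene in WWP2-/- against WT cells on the horizontal axis, untreated and TGFβ1-treated, with the SE as a bar, for all 20 libraries and after leaving out 2 or 4 of them. With all libraries only Ltbp1 in treated cells is filled as past the threshold, at -1.86, and Tgfbr3 in treated cells moves from -0.68 to -1.71 without the 2 WWP2-/- libraries of low Acta2.

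The latent binding proteins included the one gene of the 10 that was called, Ltbp1, which anchors latent TGFβ to fibrillin and fibronectin. RefSeq lists 2 start sites for it, and the counts do not tell them apart. Their windows are shown because of this call, on the plus strand at chr17:75005279-75005528 and chr17:75178531-75178780.
Ltbp1, first start: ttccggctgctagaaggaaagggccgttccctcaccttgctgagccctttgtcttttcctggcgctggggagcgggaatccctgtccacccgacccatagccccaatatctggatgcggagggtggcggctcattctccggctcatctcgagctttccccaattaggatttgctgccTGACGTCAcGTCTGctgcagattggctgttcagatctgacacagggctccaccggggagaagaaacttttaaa
Ltbp1, second start: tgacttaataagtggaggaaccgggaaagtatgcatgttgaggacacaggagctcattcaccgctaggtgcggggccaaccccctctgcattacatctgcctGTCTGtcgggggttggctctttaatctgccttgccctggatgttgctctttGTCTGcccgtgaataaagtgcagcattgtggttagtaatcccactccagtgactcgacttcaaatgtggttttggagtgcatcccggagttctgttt
The first window held a CRE, found in 1.55% of all windows, with its first base 73 bases before the start, and a SMAD box that begins 64 bases before it. The second held 2 SMAD boxes. No motif overlapped another in these windows.

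Ltbp1 was at 103, 84.0, 91.8, 28.1 and 125 CPM in untreated WT cells and at 176, 235, 30.7, 125 and 249 CPM in treated WT cells. In untreated WWP2-/- cells it was at 50.7, 21.2, 30.2, 68.3 and 89.1 CPM, and in treated WWP2-/- cells at 37.9, 38.3, 66.1, 45.1 and 37.5 CPM. Of the treated WT libraries, 4 were above all treated WWP2-/- libraries and the remaining one, which lacked Xist, was below all of them. With TGFβ1 the log2 fold change was -1.86 (SE 0.48, 95% interval -2.87 to -0.85), with an adjusted P of 0.0311 by edgeR. Ltbp1 was thus the 1 of 10 genes called in this comparison, in which 6.07% of all genes tested were called and 3.96% were called lower, so the count of 1 in 10 was near the background. By unadjusted P below 0.05, 3 of the 10 passed (Tgfb1, Tgfbr2 and Ltbp1), against 24.7% of all genes, and the Wald test of DESeq2 called the same 3, against 13.1%. The exact permutation P was 0.0476. Untreated, the log2 fold change was -0.74 (SE 0.47), with an adjusted P of 0.472 by edgeR.

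The call on Ltbp1 depended on the fit and on the libraries. The adjusted P by edgeR was 0.0589 with only the 10 treated libraries in the fit and between 0.0596 and 0.0859 when WT treated replicate 1, 2 or 5, or WWP2-/- treated replicate 2, 4 or 5, was left out. With Xist as a covariate the log2 fold change was -1.28, with an adjusted P of 0.235 by edgeR. Among treated libraries with Xist, Ltbp1 was at 37.9 CPM in the WWP2-/- library and at 125 to 249 CPM in 4 WT libraries. Among those without Xist it was at 37.5 to 66.1 CPM in 4 WWP2-/- libraries and at 30.7 CPM in the WT library. With 1 library of one genotype on each side, genotype and what goes with Xist cannot be told apart for this gene.

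Ltbp2, the family member that does not bind latent TGFβ, was at 253, 223, 501, 162 and 308 CPM in untreated WT cells and at 622, 469, 940, 318 and 559 CPM in treated WT cells. Without WWP2 it was at 251.6, 199, 357, 237 and 269 CPM untreated and at 530, 299, 839, 164 and 172 CPM treated. The spread was widest in treated WWP2-/- cells, with an SD of 286 CPM around a mean of 401 CPM, and the genotypes overlapped in both conditions. Between genotypes the log2 fold change was -0.14 (SE 0.41) untreated and -0.54 (SE 0.41) treated, with adjusted P values of 0.891 and 0.442 by edgeR. Leaving out 1 library moved the treated value between -1.01 and -0.30, with an adjusted P of 0.112 or above by edgeR.

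Ltbp3, which had the highest mean TPM of the binding proteins in untreated cells of both genotypes, was at 425, 429, 546, 419 and 458 CPM in untreated WT cells and at 624, 652, 808, 502 and 655 CPM in treated WT cells. In WWP2-/- cells it was at 517, 414, 305, 644 and 657 CPM untreated and at 293, 519, 705, 405 and 447 CPM treated, with the lowest values of all in the low-Acta2 libraries. The log2 fold change between genotypes was 0.16 (SE 0.22) untreated and -0.45 (SE 0.22) treated, with adjusted P values of 0.76 and 0.212 by edgeR.

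Ltbp4, whose product organises elastic fibres as well as latent TGFβ, varied little between untreated WWP2-/- libraries. There it was at 22.5, 24.1, 19.3, 21.2 and 19.7 CPM, against 48.6, 47.7, 81.9, 20.9 and 59.3 CPM in untreated WT cells. With TGFβ1 it was at 33.6, 37.1, 40.5, 61.8 and 40.0 CPM in WT cells and at 18.5, 31.9, 65.9, 22.1 and 22.9 CPM in WWP2-/- cells. In untreated cells 4 of the 5 WT libraries were above every WWP2-/- library, and the fifth, which lacked Xist, lay among them. The log2 fold change was -1.27 (SE 0.33, 95% interval -1.97 to -0.58) untreated and -0.40 (SE 0.33) treated, with adjusted P values of 0.0882 and 0.479 by edgeR. The Wald test of DESeq2 called the untreated difference at an adjusted P of 0.0112, and so did edgeR without both WT libraries lacking Xist, with a log2 fold change of -1.53 and an adjusted P of 0.00744. Within libraries with Xist, untreated levels were 19.3 to 22.5 CPM in 2 WWP2-/- libraries, the lower of low Acta2, and 47.7 to 81.9 CPM in 4 WT libraries. Within libraries without Xist, however, they were 19.7 to 24.1 CPM in 3 WWP2-/- libraries and 20.9 CPM in the single WT library. Genotype and what goes with Xist cannot be told apart here.

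Over all 20 libraries Ltbp3 held 50.7% ± 10.2 of the summed TPM of the 4 binding proteins, Ltbp2 37.7% ± 10.6, Ltbp1 6.6% ± 3.7 and Ltbp4 5.0% ± 2.1 (SD). The share of Ltbp1 was between 1.3% and 14.0%, with the lowest share in a treated WT library and a mean of 9.8% ± 5.1 in treated WT and 4.1% ± 1.1 in treated WWP2-/- cells.

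Counted together, 0 of the 10 genes were called by edgeR between untreated genotypes, where 0.725% of all genes tested were called, while the Wald test of DESeq2 called 1 of them, Ltbp4, and 3.89% of all genes. In the same comparison 2 of the 10, Tgfbr2 and Ltbp4, had an unadjusted P below 0.05 by edgeR, against 14.9% of all genes. The median log2 fold change of the 10 genes was -0.11 untreated and -0.49 treated, against 0.08 and 0.05 over all genes. In treated cells 9 of the 10 values were negative, the exception being Tgfb1, whereas 55.2% of all genes had a positive value. Tgfbr1 and Tgfb3, among the negative ones, turned positive without the low-Acta2 libraries, at 0.0185 and 0.19. These medians rest on the same libraries as the single genes and are given as a description.

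The counts over the 10 genes and over all genes both depended on the libraries that stood apart. Without the low-Acta2 libraries, 0 of the 10 genes were called untreated by edgeR, with 1.32% of all genes, and 3 treated (Tgfb1 higher, Tgfbr3 and Ltbp1 lower), with 16.9% of all genes. Without both WT libraries lacking Xist, the counts were 2 untreated (Tgfbr2 and Ltbp4, both lower) and 2 treated (Tgfbr2 and Ltbp1, both lower), with 5.41% and 16.2% of all genes. Without all 4, they were 3 untreated (Tgfbr2, Tgfbr3 and Ltbp4, lower), with 14.1% of all genes, and 5 treated (Tgfb1 higher, Tgfb2, Tgfbr2, Tgfbr3 and Ltbp1 lower), with 31.9% of all genes. Leaving out the WT pair kept only WT libraries with Xist, at 108 CPM or above. Without all 4, no WWP2-/- library kept was above 33.7 CPM of Xist. Genotype and Xist could not be told apart in that fit. With Xist as a covariate 0 of the 10 were called by edgeR in either comparison, with 0.451% and 3.5% of all genes.

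The low-Acta2 libraries differed from the rest in most of the 10 genes. Both lay below all other 18 libraries in Tgfb2, Tgfb3, Tgfbr2, Ltbp3 and Ltbp4 and above them in Tgfbr3, which makes 6 of the 10 genes, against 29.4% of all genes tested. Tgfbr2 and Ltbp4 lay only just outside, Tgfbr2 at 144 and 157.5 CPM against a lowest other value of 158.0 CPM and Ltbp4 at 19.3 and 18.5 CPM against 19.7 CPM. Compared with the other 8 WWP2-/- libraries, both lay outside in 7 of the 10 genes, against 47.4% of all genes. Of the ligands only Tgfb1 was within the range of the other 18 libraries in both, and so were Ltbp1 and Ltbp2, while Tgfbr1 was at 63.6 and 70.0 CPM against a lowest other value of 63.8 CPM. Marker sums in this pair were 347 and 510 CPM for myofibroblasts, 34.2 and 39.8 CPM for pericytes and smooth muscle, 4207 and 5139 CPM for fibroblasts, 74.8 and 71.1 CPM for macrophages and 6.08 and 7.61 CPM for endothelium. The part of these cell types in the levels of the 10 genes was not tested.

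**Figure D4:**
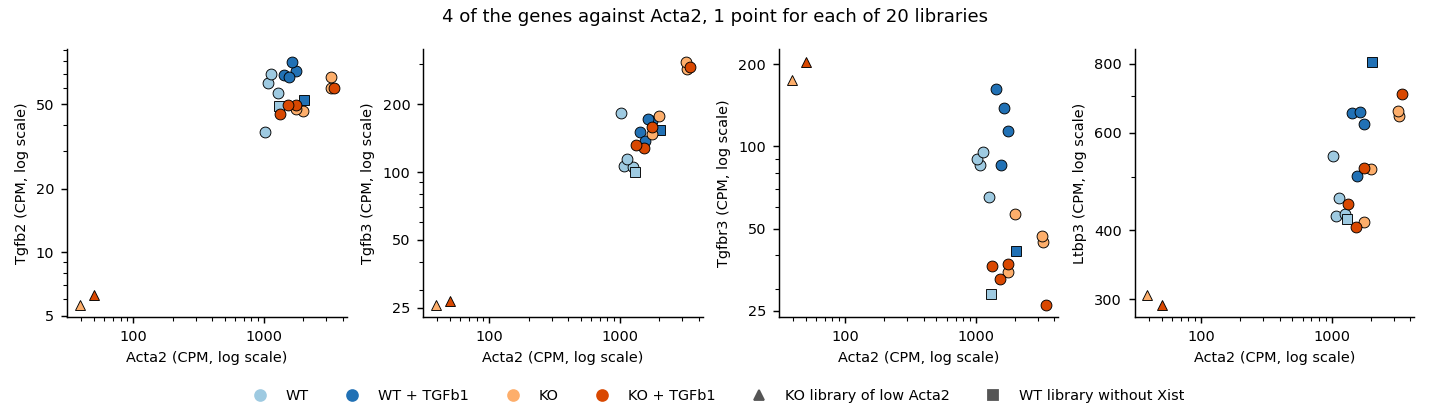
Level of Tgfb2, Tgfb3, Tgfbr3 and Ltbp3 against that of Acta2, both in CPM on log axes, with 1 point per library. The 2 WWP2-/- libraries at 38.9 and 50.4 CPM of Acta2 sit apart from the other 18 in all 4 panels, below them for Tgfb2, Tgfb3 and Ltbp3 and above them for Tgfbr3.

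The WT libraries without Xist were both below the other 8 WT libraries in Tgfbr2 (191 and 160 CPM against 194 or more), Tgfbr3 (28.7 and 41.5 CPM against 65.3 or more) and Ltbp1 (28.1 and 30.7 CPM against 84.0 or more). These are 3 of the 10 genes, against 28.6% of all genes tested. The summed macrophage markers were at 3750 and 403 CPM in this pair, and at 57.4 to 3290 CPM in the other libraries, and the summed endothelial markers at 60.7 and 169 CPM, against 6.08 to 154 CPM. The summed fibroblast markers were at 4270 and 10566 CPM, each the lowest of its group, against group medians of 13197 and 20249 CPM. Of these markers, Col1a1 averaged 8161 CPM and Col1a2 8000 CPM in treated WT cells, so this sum rests largely on collagen transcripts. The part of these cells in the levels of the 10 genes was not tested.

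Added TGFβ1 changed none of the 10 genes past the threshold in either genotype. In WT cells 0 genes of all those tested were called (0%) and in WWP2-/- cells also 0 (0%), at 6.85% and 3.49% of genes with an unadjusted P below 0.05 by edgeR, while the Wald test of DESeq2 called 27 (0.132%) and 44 (0.255%), all outside the 10. Treated and untreated libraries overlapped for every one of the 10, and did not for 1.35% of all genes in WT and 0.377% in WWP2-/- cells. The lowest unadjusted P values among the 10 were those of Ltbp2 and Ltbp3 in WT cells. Ltbp2 had a log2 fold change of 1.01 (SE 0.41, 95% interval 0.15 to 1.87) and Ltbp3 of 0.51 (SE 0.22, 95% interval 0.05 to 0.97), with adjusted P values of 0.657 and 0.683 by edgeR. For Ltbp3, 4 of the 5 treated WT libraries were above all untreated WT libraries, and the fifth, at 502 CPM, was below only the highest of them. Without the WT libraries lacking Xist the value of Ltbp2 was 0.58 and that of Ltbp3 0.36.

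Of the ligands in WT cells, Tgfb1 had a log2 fold change of -0.20 (95% interval -0.67 to 0.26), Tgfb2 of 0.30 (95% interval -0.73 to 1.34) and Tgfb3 of 0.36 (95% interval -0.70 to 1.42), by edgeR. In WWP2-/- cells the value of Tgfb1 was 0.45 (95% interval -0.02 to 0.91), with an adjusted P close to 1, at 0.9999, by edgeR. The intervals of the 3 ligands all included 0, and for Tgfb2 and Tgfb3 they reached beyond 1 on the log2 scale, so a change of that size could not be told from none. Ltbp1 had values of 0.92 (95% interval -0.07 to 1.90) in WT and -0.21 (95% interval -1.19 to 0.78) in WWP2-/- cells.

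The test of whether the response differed between genotypes called 0 genes of all those tested (0%), with 6.98% of genes at an unadjusted P below 0.05 by edgeR and 10 genes (0.049%) called by the Wald test of DESeq2, all outside the 10. The largest difference in response was that of Ltbp1, at -1.12 (SE 0.66, 95% interval -2.51 to 0.27, adjusted P 0.8 by edgeR). Ltbp4 followed at 0.87 (SE 0.46), Tgfb3 at -0.72 (SE 0.71) and Tgfb1 at 0.65 (SE 0.31, 95% interval -0.01 to 1.31, adjusted P 0.722 by edgeR). In WT cells 8 of the 10 genes had a positive response, with a median of 0.33 against 0.02 over all genes, and in WWP2-/- cells 5 of the 10, with a median of -0.01 against 0.00. Both comparisons of treatment share libraries with those of genotype and are no separate evidence.

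**Figure D5:**
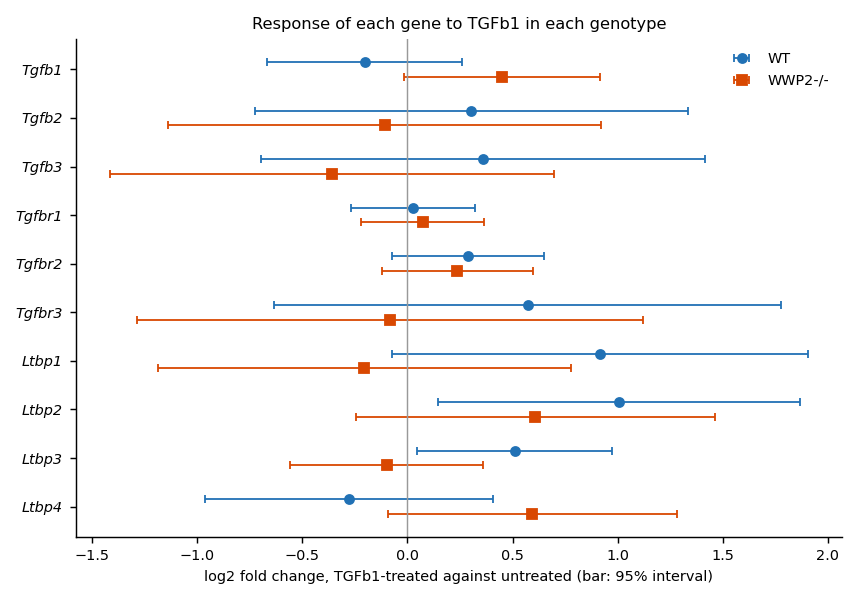
Log2 fold change of each gene in TGFβ1-treated against untreated cells on the horizontal axis, with its 95% interval as a bar, for WT and WWP2-/- cells. Only the intervals of Ltbp2 (0.15 to 1.87) and Ltbp3 (0.05 to 0.97) in WT cells exclude 0, and neither passes the threshold after adjustment.

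The genes that act around the ligands and receptors were counted in 5 lists. Over all genes tested, edgeR called 0.725% untreated and 6.07% treated, 14.9% and 24.7% had an unadjusted P below 0.05, and the Wald test of DESeq2 called 3.89% and 13.1%. Of 15 co-receptors and related receptors, 0 were called by edgeR in either genotype comparison, with 3 untreated and 5 treated at an unadjusted P below 0.05, and the Wald test of DESeq2 called 0 and 2. Of 21 genes for processing and activation of the latent ligand, 1 was called untreated, Pcsk6, which encodes a proprotein convertase, and 2 were called treated, Pcsk6 lower and Mmp9, a gelatinase, higher. Pcsk6 was at 52.4 ± 25.4 CPM in WT and 7.77 ± 3.91 CPM in WWP2-/- untreated cells (log2 fold change -2.75, SE 0.61, adjusted P 0.0446 by edgeR) and at 50.7 ± 15.5 and 6.99 ± 3.58 CPM in treated cells. Mmp9 was at 0.49 ± 0.289 CPM in WT and 17.8 ± 21.3 CPM in WWP2-/- treated cells, where it ranged from 1.88 to 48.3 CPM (log2 fold change 5.18, SE 1.15, adjusted P 0.0158 by edgeR). Macrophages also make this enzyme, and their summed markers were at 57.4 to 403 CPM in treated WT and at 71.1 to 3290 CPM in treated WWP2-/- cells, whose part in the level of Mmp9 was not tested.

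The matrix partners of the latent complex were the list with the lowest medians. Of 15 genes, 1 was called lower untreated (Aspn) and 6 treated (Aspn, Emilin1, Fbln5, Fbn2, Fmod and Mfap2), and 0 were called higher, where 0.725% of all genes were called untreated and 3.96% were called lower treated. The median log2 fold change of the list was -1.07 untreated and -1.25 treated, against 0.08 and 0.05 over all genes. Aspn, a small proteoglycan that binds TGFβ, was at 18.9 ± 11.3 CPM in treated WT cells and at 0.271 ± 0.28 CPM in treated WWP2-/- cells, but at only 0.1 CPM in the lowest of these WT libraries (log2 fold change -6.14, SE 1.24, adjusted P 0.0121 by edgeR). Fbn2 encodes a fibrillin and Mfap2 a protein of the same microfibrils, to which latent binding proteins attach.

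Of 17 SMAD transducers and regulators, 0 were called untreated by edgeR, with 4 at an unadjusted P below 0.05 and 0 by the Wald test of DESeq2, and 2 were called treated. Nedd4l, a ubiquitin ligase of the same family as WWP2, averaged 107 ± 44.7 CPM in the WWP2-/- libraries, against 45.1 ± 10.6 CPM in the WT ones (log2 fold change 1.24, SE 0.33, adjusted P 0.0335 by edgeR). Smad6, an inhibitory SMAD, was at 29.9 ± 10.2 and 73.1 ± 19.8 CPM (log2 fold change -1.29, SE 0.37, adjusted P 0.0473 by edgeR). Of 20 target genes of the pathway, 0 were called untreated by edgeR, with 9 at an unadjusted P below 0.05 and 3 by the Wald test, against 14.9% and 3.89% of all genes. In treated cells 6 were called, against 6.07% of all genes, 2 of them higher, Il11 among these, and 4 lower (Col1a1, Col1a2, Lox and Postn). Il11, a cytokine that TGFβ induces in fibroblasts, ranged from 13.6 to 409 CPM in treated WWP2-/- and from 3.31 to 13.5 CPM in treated WT cells (log2 fold change 4.27, SE 0.92). Col1a2, a collagen chain, averaged 1296 ± 969 CPM without WWP2, against 8000 ± 2807 CPM with it (log2 fold change -2.63, SE 0.57).

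Without the low-Acta2 and no-Xist libraries the treated counts were 1 higher and 10 lower of 15 matrix partners, and 5 higher and 6 lower of 20 target genes, at a background of 31.9%. The untreated counts of these lists were then 0 higher and 9 lower, and 6 higher and 5 lower, at a background of 14.1%. As above, genotype and Xist could not be told apart without these libraries. For the response to TGFβ1 edgeR called 0 genes of the 5 lists in either genotype, with at most 1 gene of a list in WT and 3 in WWP2-/- cells at an unadjusted P below 0.05, and the Wald test of DESeq2 called 1, in the processing list in WT cells.

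Of the 10 genes, 9 are set here beside the gene whose log2 CPM followed theirs most closely over the 20 libraries, among 13519 genes with a mean of at least 1 CPM. All the values that follow are descriptions over libraries that share groups, and no test was made on them. Tgfb2 was nearest to Col4a2, a chain of basement membrane collagen, with a Pearson r of 0.988, which was 0.839 without the low-Acta2 libraries. Tgfb3 was nearest to Actg2, a smooth muscle actin, with r of 0.966 and of 0.945 without them. Tgfb1 was nearest to B4galt7 (r = 0.880 and 0.885), Tgfbr1 to Jcad (0.850 and 0.831), Tgfbr2 to Pcdhgb1 (0.927 and 0.922), whose exons are partly shared with other genes of its protocadherin cluster so that its counts are uncertain, and Tgfbr3 to Arhgap44 (0.973 and 0.960).

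Of the binding proteins, Ltbp2 was nearest to Rab27b (r = 0.901 and 0.897 without the low-Acta2 libraries), Ltbp3 to Pde3b (0.934 and 0.909) and Ltbp4 to Lpin1, a regulator of lipid synthesis (0.918 and 0.930). Among the 10 genes themselves, Tgfb2 and Tgfb3 had r of 0.847 over 20 libraries but 0.119 over 18, so their likeness rested on the low-Acta2 pair. Tgfbr2 and Ltbp1 had r of 0.816 and 0.791. Tgfbr3 and Ltbp1 were closer without that pair, with r of 0.510 over 20 and 0.886 over 18 libraries.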

How the data were processed

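The 10 genes, the gene lists and the tests were chosen with earlier results of these data known. The authors aligned paired reads to GRCm38 (mm10) with STAR and counted read pairs over exons with featureCounts, and the deposited table holds these raw counts per gene for 20 libraries. Tool versions and the strand setting are not given in the sources used here. The genes that reached 5 counts in 5 or more libraries were fitted across all 20 libraries and 4 groups with edgeR 4.0.16 (R 4.3.3, TMM scaling, glmQLFit and glmQLFTest, no covariate), with Benjamini-Hochberg adjustment over 20407 genes and a threshold of 0.05. Intervals of 95% come from the fitted SE. For single genes a two-sided exact permutation test of mean log2 (CPM + 0.5) over all arrangements of the libraries was run, whose smallest P is 0.00794, in 10 genes and 4 comparisons and without adjustment. TPM used the exon lengths of GENCODE annotation on GRCm38. Totals of 47520759 to 73063697 counts put 3 counts at 0.0631 CPM or less, and such floors cover counting error only. The fit was tested on simulated counts, drawn around a common mean per gene with known changes in treated WWP2-/- libraries. No simulated library stood apart, so that test cannot show how the low-Acta2 libraries or those without Xist affect the calls. All 10 genes and Wwp2 are named, with the gene most correlated with each of the 10 and, from each of 5 pathway lists, the called gene of at least 1 CPM that changed most in each direction; the other called genes are named only to account for the counts, and some results under this rule are not reported here. Since the strand setting is not stated, reads from genes that overlap on opposite strands may have been mixed. Alternatives were DESeq2 1.42.0 (size factors, Wald test), other filters, a replicate block, Xist as a covariate, fits of only the groups compared and each library left out. Leaving out the libraries of low Acta2 or without Xist was chosen after seeing the data.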

Additional observations from a re-analysis of the deposited data

Results flagged for a closer look

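In 10 of the 40 sets of 5 libraries (10 genes in 4 groups) 1 library lay far from the other 4, by a test that chance alone passes in about 1 in 20 sets. The low-Acta2 libraries gave 5 of the 10. In treated WWP2-/- replicate 1, Tgfb2 was at 6.25 CPM, with the nearest other library at 45.0, Tgfbr2 at 157.5 CPM (nearest 187) and Tgfbr3 at 204 CPM (nearest 37.1). In untreated WWP2-/- replicate 3, Tgfbr2 was at 144 CPM (nearest 158) and Tgfbr3 at 174 CPM (nearest 56.5).

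In treated WWP2-/- replicate 3, Ltbp1 was at 66.1 CPM (nearest 45.1) and Ltbp4 at 65.9 CPM (nearest 31.9), both the highest of their group. In treated WT replicate 4, Tgfb1 was at 103 CPM (nearest 84.4) and Ltbp4 at 61.8 CPM (nearest 40.5). In untreated WT replicate 3, Tgfb3 was at 183 CPM (nearest 114).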

How the results depend on the processing

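Between untreated genotypes 0 of the 10 genes were called by edgeR, against 1 with the Wald test of DESeq2, 2 without both WT libraries lacking Xist, 3 without those and the low-Acta2 libraries, and 0 to 1 when each library was left out in turn. Between treated genotypes 1 was called, against 2 with at least 10 counts in every library, 3 with the Wald test, 3 without the low-Acta2 libraries, 2 without the WT libraries lacking Xist, 5 without all 4, 0 with Xist as a covariate, 0 with only the groups compared, and 0 to 3 when each library was left out in turn. With a replicate block 0 were called there, and Ltbp1 had a log2 fold change of -1.72 at an adjusted P of 0.0814 by edgeR. The block made 1 call over all genes untreated and 670 treated. Libraries of the same number deviated with r from -0.59 to 0.52 and correlated best with their own number in 8 of 30 cases. Of these, 4 were between the untreated genotypes, where r was -0.0147 for replicate 4 and 0.19 to 0.46 for the others, so a shared source cannot be told from these data, and a lost call is not read as a weaker effect. Over all genes, the fits of only the groups compared gave 1 and 569 calls, against 148 and 1238.

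Leaving out 1 library changed a call in treated cells for Ltbp1 (6 libraries), Tgfb1 (3), Tgfbr2 (3) and Tgfbr3 (1) and in untreated cells for Ltbp4 (2). Signs turned only for values that had not passed. Without the low-Acta2 libraries Tgfb1 was at -0.085 untreated, and Tgfb3 and Tgfbr1 at 0.19 and 0.0185 treated. Without all 4 these were -0.0406, 0.18 and 0.0159. With Xist as a covariate Tgfb3, Tgfbr3 and Ltbp3 were at -0.18, 0.67 and -0.0866 untreated and Tgfbr3 at 0.10 treated. The replicate block put the response of Tgfb2 in WWP2-/- cells at 0.00927, and the difference in response of Ltbp2 was 0.0518 without the WT libraries lacking Xist and 0.0597 without all 4. The cause was not tested.

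With each library left out, log2 fold changes untreated ran from -0.06003 to 0.22 for Tgfb1, -0.47 to 0.00047 for Tgfb2, -0.67 to 0.10 for Tgfbr3 and -0.29 to 0.12 for Ltbp2, and treated from -0.51 to 0.19 for Tgfb3 and -0.14 to 0.019 for Tgfbr1. Responses ran from -0.0416 to 0.10 for Tgfbr1 in WT cells, and in WWP2-/- cells from -0.39 to 0.18 for Tgfb2, -0.0454 to 0.14 for Tgfbr1, -1.10 to 0.56 for Tgfbr3, -0.39 to 0.0794 for Ltbp1 and -0.28 to 0.0407 for Ltbp3. Differences in response ran from -0.0718 to 0.11 for Tgfbr1 and -0.19 to 0.0883 for Tgfbr2.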
